A study of Mus musculus with 6 samples.

Results

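The genes described here are 10 genes of the growth factor response: the zinc finger transcription factors Egr1, Egr2 and Egr3, their corepressors Nab1 and Nab2, the serum response factor Srf, the immediate early response genes Ier2, Ier3 and Ier5, and the orphan nuclear receptor Nr4a1. They were taken by name, as every probe set (a group of short probes against 1 transcript) whose symbol in the array annotation was one of these. All 10 were found, out of 18193 genes measured, with 17 probe sets in all. The samples were CT26 cells, a colon carcinoma line of BALB/c mice. In 3 control samples the transfected cells carried pU6-m3, an empty expression vector, and in 3 samples, called shSep15, the same vector with a short hairpin RNA against Sep15, a selenoprotein of the endoplasmic reticulum. Both groups therefore carried the vector, and the shSep15 group rests on 1 hairpin. The labels give no stimulation or time after transfection, and do not say whether the cells were clones or pools. The 3 samples of a group were different mRNA samples, each on 1 whole-genome mouse array from Affymetrix, and nothing says whether they came from separate cultures, so that p-values measure only the spread between these samples, which may be technical.

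Immediate early genes are transcribed within minutes of a growth factor or stress signal without new protein synthesis. In the best studied route the kinase ERK phosphorylates ternary complex factors such as Elk1, which sit beside SRF on a sequence called the CArG box upstream of genes such as Egr1 and Fos. SRF also works with myocardin-related factors (Mrtfa, Mrtfb), which respond to actin and drive genes of the cytoskeleton. EGR proteins bind a GC-rich site and induce Nab2, whose product binds EGR proteins and represses their targets, partly through the NuRD chromatin complex and its subunit Chd4.

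Promoters (the 250 bases before to 50 after a RefSeq start, build GRCm38.p6) were held for 7 of the 10 genes: Egr2, Nab1, Nab2, Srf, Ier3, Ier5 and Nr4a1. Those for Egr1, Egr3 and Ier2 are not shown here. Searched on both strands were the CArG box, the EGR site GCGNGGGCG, and the cyclic AMP response element TGACGTCA with its core TGACG, which every full element contains. The 4 stretches below are the 250 bases before the start, 5′ to 3′ on the gene's strand, with these motifs in capitals. They are shown because each holds a match to the CArG box or the EGR site. Egr2 is shown for 1 of its 5 starts in the table, at chr10:67537619-67537868 (plus strand), with Srf at chr17:46556163-46556412 (minus), Nab1 at chr1:52500449-52500698 (minus) and Nr4a1 at chr15:101266596-101266845 (plus).
Egr2: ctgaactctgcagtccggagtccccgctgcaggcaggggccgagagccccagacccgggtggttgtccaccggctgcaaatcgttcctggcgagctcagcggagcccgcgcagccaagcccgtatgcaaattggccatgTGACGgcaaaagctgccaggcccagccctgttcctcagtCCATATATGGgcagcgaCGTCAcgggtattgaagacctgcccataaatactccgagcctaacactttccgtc
Srf: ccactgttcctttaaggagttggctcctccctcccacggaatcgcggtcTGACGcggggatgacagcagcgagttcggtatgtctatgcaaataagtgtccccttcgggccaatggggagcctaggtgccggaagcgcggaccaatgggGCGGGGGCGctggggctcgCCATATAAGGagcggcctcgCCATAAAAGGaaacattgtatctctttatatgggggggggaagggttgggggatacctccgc
Nab1: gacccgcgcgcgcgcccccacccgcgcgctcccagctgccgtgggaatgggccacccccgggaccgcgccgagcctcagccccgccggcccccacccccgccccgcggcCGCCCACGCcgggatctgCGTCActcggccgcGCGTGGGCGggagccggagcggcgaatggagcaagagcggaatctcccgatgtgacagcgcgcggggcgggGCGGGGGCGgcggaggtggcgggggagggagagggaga
Nr4a1: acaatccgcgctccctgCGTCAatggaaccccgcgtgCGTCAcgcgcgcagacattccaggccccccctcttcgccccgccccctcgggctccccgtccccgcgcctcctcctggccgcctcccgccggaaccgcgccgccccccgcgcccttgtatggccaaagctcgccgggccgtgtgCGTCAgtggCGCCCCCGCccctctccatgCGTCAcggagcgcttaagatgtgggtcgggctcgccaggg
The Egr2 stretch has the CArG box CCATATATGG beginning 72 bases before the start, between cores of the cyclic AMP element at 111 and 55 bases. Of its 4 other starts, 2 hold the same sites in overlapping windows, the one with its window from 67537316 holds another CArG box, CCTTTTTTGG, and the one with its window from 67535249 holds none of the motifs. The Srf stretch has a pair of CArG boxes, CCATATAAGG at 82 and CCATAAAAGG at 62 bases before the start, and an EGR site at 101 bases. Nab1 has 3 EGR sites, and Nr4a1 has 1 EGR site and 4 cores of the cyclic AMP element. In the windows of Nab2, Ier3 and Ier5 none of these letters was found. Over the 27025 genes of the table with a promoter, 1.81% had a CArG box, 6.27% an EGR site, 2.03% TGACGTCA and 23% TGACG. Of the 7 genes, 2 had a CArG box, 3 an EGR site, 4 a core and 0 the full cyclic AMP element. Such matches describe the sequence and do not show binding.

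The array values are log2 signals after RMA, a background correction, normalization and probe summary; a log2 difference of 1 is a 2-fold change. Array medians lay between 5.83 and 5.87, and each array correlated with its own group at a mean of 0.993 to 0.995 and with the other group at 0.977 to 0.979. The targeted gene, now named Selenof, read 12.40 ± 0.05 in control and 9.48 ± 0.13 in shSep15 cells (SD, n = 3), or 13.2% of the control signal. A signal under log2 6.02, the 95th percentile of olfactory and vomeronasal receptor probe sets, is called background here, for a gene by its mean over all 6 arrays. Of 10 markers of colon epithelium, Cdh1, Krt19, Vil1, Cdx1 and Cdx2 lay under it in both groups. Krt18 read 6.54 to 6.78 on control arrays and fell by 2.16 into background, and Krt20 (−2.13) and Lgals4 fell too (limma). Epcam (−0.045, limma adjusted p = 0.891) and Krt8 (−0.003, limma adjusted p = 0.99) lay above background and did not pass. Krt8 was barely above it, at 6.07 in control and 6.06 in shSep15 cells, so its lack of change says little. Of 8 fibroblast markers 6 lay above background, of which Pdgfrb (−3.36), Col3a1 (−2.27) and Dcn (−1.72) fell, and Pdgfra (1.35), Col1a1 (1.32) and Col1a2 (0.64) rose (limma). The summed level of the epithelial markers was log2 9.83 to 10.07 on control and 9.06 to 9.32 on shSep15 arrays, that of the fibroblast markers 12.82 to 13.03 and 12.93 to 13.41, that of 6 measured leukocyte markers 8.80 to 9.12 and 8.50 to 8.76, and that of 5 endothelial markers 7.65 to 7.67 and 7.61 to 7.72. Of the leukocyte markers 3 were above background, Ptprc not among them, and of the endothelial markers 1. Among those leukocyte markers Cd68 fell by 1.48 (limma adjusted p = 0.000297), while Csf1r (0.09) and Cd3e (0.13) did not pass. Itgam, under background, fell by 0.37 (limma adjusted p = 0.0204). The part of other cells in the results was not tested, and fewer cells of a type and less RNA per cell cannot be told apart in such samples.

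Of the 10 genes, 5 fell and 2 rose. On the brightest probe set of each gene, those lower in shSep15 cells were Egr1, Egr2, Ier5, Ier2 and Nab2, those higher were Srf and Nab1, and Egr3, Ier3 and Nr4a1 did not pass the test (limma, Benjamini-Hochberg adjusted p under 0.05). Over all 18193 genes 25.0% were called, 12.8% lower and 12.2% higher, and over the 10870 genes above background, where 9 of the 10 lie, 39.1%, with 19.8% lower and 19.3% higher. Of the 17 probe sets 9 were lower and 2 higher, where 9.66% and 9.71% of all probe sets were. The median log2 difference of the 10 genes was −0.26, against 0.01 for all genes. The falls were the larger changes, with 36.9% to 63.8% of the control signal left in 4 of the genes and 20.6% in Egr1, while the 2 rises were 1.24-fold and 1.32-fold. The groups did not overlap in 5 genes in the lower and 3 in the higher direction, where 18.7% and 19.3% of all genes separate and 27.2% and 27.9% of those above background. With 3 arrays a group an exact two-sided permutation test cannot go below 0.1, and it gave that value for each of these 8.

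**Figure D1:**
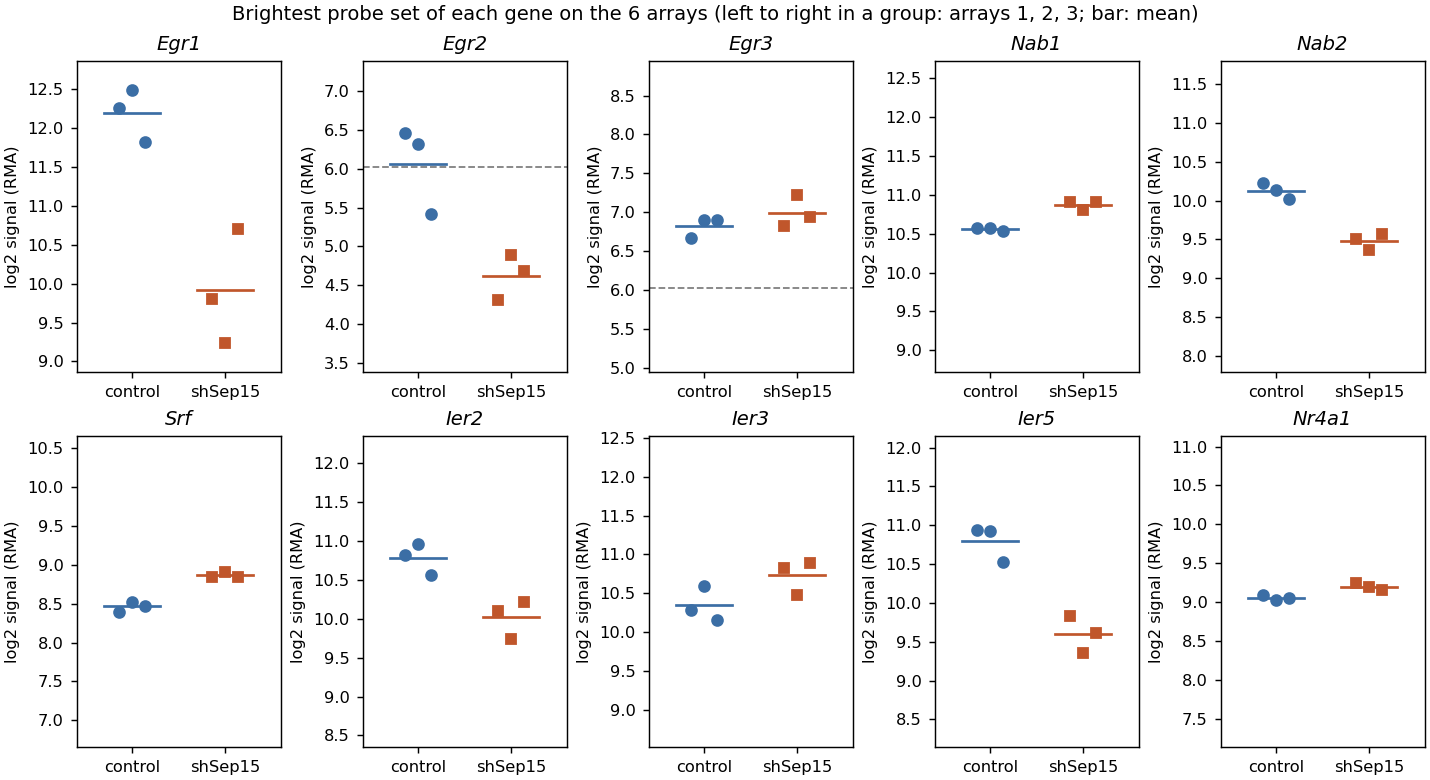
Log2 RMA signal of the brightest probe set of each of the 10 genes (y axis, 4 log2 units in every panel) on the 3 control (circles) and 3 shSep15 arrays (squares), with group means as bars and the background level of 6.02 as a dashed line where it falls in the panel. Egr1, Egr2, Nab2, Ier2 and Ier5 are lower on every shSep15 array, Nab1, Srf and Nr4a1 are higher on every one, and Egr3 and Ier3 overlap.

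Egr1, a zinc finger factor that reads out growth factor signalling, had the greatest fall of the 10. It read 12.26, 12.49 and 11.83 on control arrays 1 to 3 and 9.81, 9.24 and 10.70 on shSep15 arrays 1 to 3. The highest shSep15 reading was 1.13 under the lowest control reading, yet the shSep15 arrays spanned 1.46 among themselves, more than the controls with 0.67. The means of 12.19 ± 0.34 and 9.92 ± 0.74 (SD, n = 3) gave a log2 difference of −2.28 (SE 0.32, 95% interval −2.99 to −1.56, limma adjusted p = 0.000899), a 4.85-fold fall. Only 0.44% of the 18193 genes had a difference as low or lower.

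Egr2, an EGR factor known from Schwann cells and lymphocytes, also fell but from a level close to background. Its brighter probe set read 6.46, 6.32 and 5.41 on the control arrays and 4.31, 4.89 and 4.68 on the shSep15 arrays, so that all shSep15 readings and the one of control 3 were under 6.02. The log2 difference was −1.44 (SE 0.26, limma adjusted p = 0.00387), and its size is not exact since the shSep15 signal is background. The dimmer probe set, under background in both group means, differed by −1.01 (limma adjusted p = 0.0375). That call ended without control 1 or 2 or any 1 shSep15 array (limma adjusted p from 0.0892 to 0.143) and without the intensity trend of the test (0.0546).

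The 2 probe sets of Egr3, a close relative of Egr2 in sequence and binding site, disagreed. The brighter one, 1421486_at, read 6.67, 6.89 and 6.91 on control and 6.82, 7.22 and 6.94 on shSep15 arrays, and its log2 difference of 0.17 (95% interval −0.14 to 0.48, limma adjusted p = 0.496) did not pass. The other, 1436329_at, read 6.79, 6.97 and 6.07 on control and 4.98, 4.78 and 4.98 on shSep15 arrays, a fall of 1.70 on the log2 scale (SE 0.21, limma adjusted p = 0.000469) into background. Their group means in control cells, 6.82 and 6.61, were both within 1 log2 unit of the background level. The mean of both gave −0.76 (limma adjusted p = 0.00116), so the direction of Egr3 depends on the probe set and is not settled here. Egr4, the remaining EGR gene, named for its family and not by the naming rule, read 6.32 in control and 6.40 in shSep15 cells (limma adjusted p = 0.729).

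**Figure D2:**
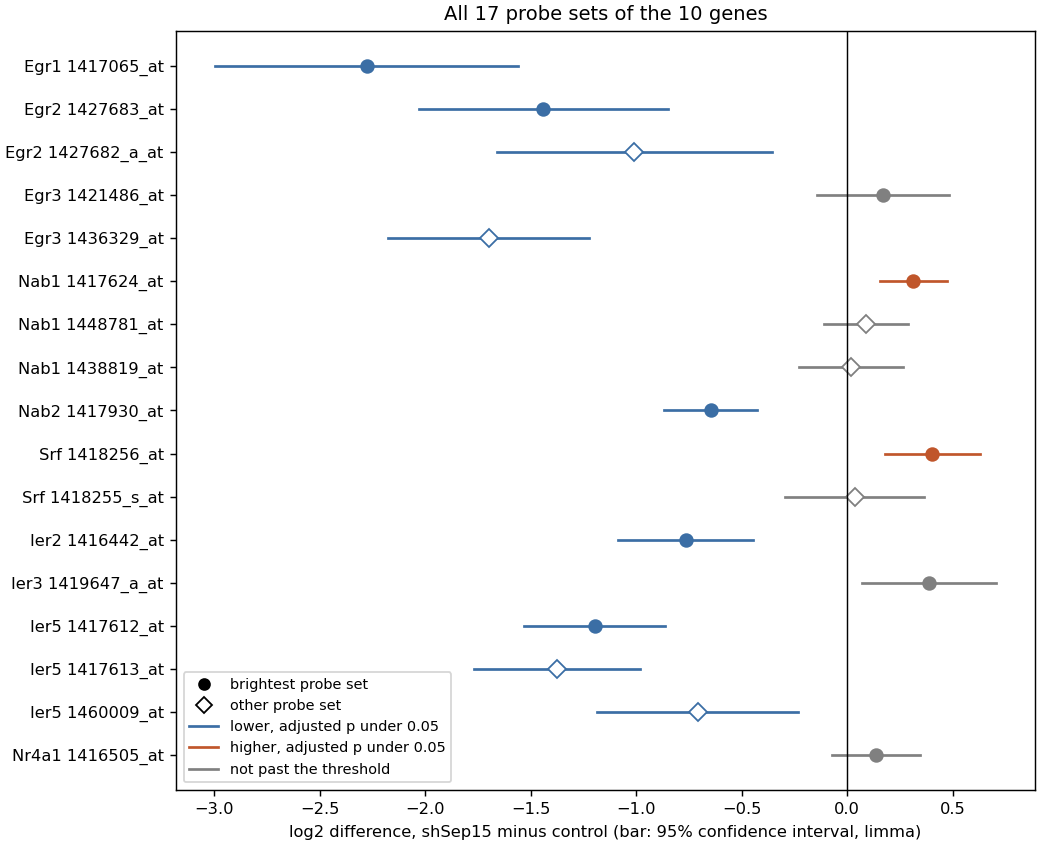
Log2 difference, shSep15 minus control (x axis), with its 95% confidence interval from limma for each of the 17 probe sets of the 10 genes (y axis), filled for the brightest probe set of a gene. The 9 blue intervals lie below 0, the 2 called higher are those of Nab1 1417624_at and Srf 1418256_at, and the probe sets of Egr3 fall on different sides of 0.

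The NAB corepressors moved apart. Nab2, the inducible member that binds EGR proteins and limits their activity, read 10.22, 10.14 and 10.03 on control and 9.51, 9.37 and 9.57 on shSep15 arrays. It fell by 0.65 on the log2 scale (SE 0.10, limma adjusted p = 0.00134), with a gap of 0.46 between the groups against SDs of 0.10 in each. Nab1, the more constitutive member, read 10.58, 10.57 and 10.53 on control and 10.91, 10.81 and 10.91 on shSep15 arrays with its brightest probe set, a rise of 0.31 (SE 0.07, limma adjusted p = 0.0122). The other probe set of Nab1 above background differed by 0.09 (95% interval −0.11 to 0.29, limma adjusted p = 0.582) and the third, under background, by 0.02. The rise was lost on the mean of the probe sets (0.14, limma adjusted p = 0.288) and without shSep15 3 (0.30, limma adjusted p = 0.0576).

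Of 11 measured subunits of the NuRD complex, which NAB proteins recruit, 9 rose and 0 fell (limma; 1 was lower at an unadjusted p under 0.05), with a median of 0.49. All 11 lay above background, where 19.3% of genes were higher and 19.8% lower. The deacetylase Hdac1 rose by 0.92 (SE 0.07, limma adjusted p = 3.08e-05), the adaptor Mta2 by 0.77 and the deacetylase Hdac2 by 0.59. A further probe set of Hdac2 did not share that call. Nor did the 2 further probe sets above background of Gatad2b, counted among the 9 and named after its values were seen. The call was shared by 2 of 3 for Gatad2a, likewise named, by 2 of 2 for Chd4 and by 1 of 1 for Rbbp7, also named so. The remodelling ATPases Chd4 and Chd3, named after their values were seen, rose by 0.49 and 0.49. Mta1, likewise named, differed by −0.30 (limma adjusted p = 0.0566).

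Srf, the factor that binds the CArG box, was modestly higher on its brightest probe set. It read 8.40, 8.53 and 8.47 on control and 8.85, 8.92 and 8.85 on shSep15 arrays, with no overlap, a log2 difference of 0.40 (SE 0.10, limma adjusted p = 0.0186). The other probe set, 1418255_s_at, whose suffix marks probes that can match more than 1 transcript, read 8.14 to 8.46 on control and 8.18 to 8.60 on shSep15 arrays and differed by 0.04 (95% interval −0.29 to 0.36, limma adjusted p = 0.915). The call of the brighter set ended without control 1, shSep15 2 or shSep15 3 (limma adjusted p = 0.0559, 0.0654 and 0.0568) and on the mean of the 2 probe sets (0.22, limma adjusted p = 0.112). The rise of Srf thus rests on 1 of its 2 probe sets.

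Among 7 SRF partners, 6 of them above background, 3 fell and 1 rose, where 19.8% of genes above background were lower and 19.3% higher. The ternary complex factor Elk1 fell by 0.89 (SE 0.11, limma adjusted p = 0.000425; −0.47 on the mean of its probe sets), from 7.42 to 7.55 on control arrays to 6.55 to 6.65 on shSep15 arrays. Its relative Elk3 rose by 0.73 (SE 0.10, limma adjusted p = 0.000887), and the SRF-binding protein Srfbp1 fell by 0.76 (SE 0.13, limma adjusted p = 0.00273). Elk4, named after its values were seen, fell by 0.44 on its brightest probe set, a call that 2 further probe sets did not share. Mrtfa (−0.04, limma adjusted p = 0.843) and Mrtfb (0.06, limma adjusted p = 0.71) did not pass, and Myocd lay under background.

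Genes of the cytoskeleton and matrix that SRF drives with its actin-responsive cofactors were also counted. Of 25 measured, 22 of them above background, 11 rose and 3 fell, with a median of 0.20. Among genes above background 19.3% were higher and 19.8% lower, and over all genes 12.2% and 12.8%. Ccn1, a matricellular protein that is also an immediate early gene, read 10.69 to 11.03 on control and 12.32 to 12.79 on shSep15 arrays, a rise of 1.68 (SE 0.13, limma adjusted p = 2.95e-05). Its relative Ccn2 rose 3.03-fold (limma adjusted p = 5.81e-06) and tropomyosin Tpm2 by 1.05 (SE 0.12, limma adjusted p = 0.000258). The 3 that fell, named after their values were seen, were the adhesion proteins Lpp (−0.56, shared by 3 of 7 further probe sets above background) and Zyx (−0.56, not shared by its other probe set) and the actin-binding Cald1 (−0.21). Among those that rose, the calls of Vcl (0.67) and Actb (0.20), likewise named, were not shared by their other probe set above background. A CArG box stood in the promoter window of 7 of the 20 genes of this list with a promoter, of 3 of 35 other immediate early genes, and of 1.81% of all genes of the table.

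The 3 IER genes differed. Ier5, which is known to act on the heat shock factor HSF1, had fallen on each of its 3 probe sets. The brightest read 10.94, 10.92 and 10.53 on control and 9.83, 9.36 and 9.61 on shSep15 arrays, a log2 difference of −1.20 (SE 0.15, limma adjusted p = 0.000453), which left 43.7% of the signal. The next read 9.43, 9.39 and 9.23 on control and 8.12, 7.57 and 8.25 on shSep15 arrays, a difference of −1.37 (SE 0.17, limma adjusted p = 0.000507). On both, the groups stood 0.70 and 0.98 apart. The third, under background in both groups, differed by −0.71 (limma adjusted p = 0.0448), a call that ended without control 1 or 2 or any 1 shSep15 array (limma adjusted p from 0.0946 to 0.166) and without the intensity trend (0.0615).

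Ier2, a nuclear protein induced by growth factors, read 10.83, 10.96 and 10.56 on control and 10.10, 9.74 and 10.22 on shSep15 arrays. The groups did not overlap, with a difference of −0.77 on the log2 scale, or 58.8% of control (SE 0.14, limma adjusted p = 0.00444). Ier3, a stress-induced regulator of apoptosis, read 10.29, 10.60 and 10.15 on control and 10.83, 10.48 and 10.89 on shSep15 arrays. The lowest shSep15 array lay inside the control range, and the difference of 0.39 (95% interval 0.07 to 0.70, limma adjusted p = 0.0946) missed the threshold. It passed under quantile normalization (0.40, limma adjusted p = 0.0458) and without control 2 (0.51, limma adjusted p = 0.0428) or shSep15 2 (0.51, limma adjusted p = 0.0451). Ier5l, the relative of Ier5, named for its family, differed by 0.20 (limma adjusted p = 0.316).

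Nr4a1, an orphan nuclear receptor induced by many of the same signals as Egr1, showed little spread. It read 9.09, 9.03 and 9.05 on control and 9.24, 9.19 and 9.15 on shSep15 arrays, so the groups did not overlap but stood only 0.05 apart. The log2 difference of 0.14 (SE 0.09, 95% interval −0.07 to 0.34, limma adjusted p = 0.399) did not pass, and the interval leaves no room for a fall of the size seen in Egr1. Its relatives Nr4a2 and Nr4a3, named for their family, differed by 0.14 (limma adjusted p = 0.658) and 0.01 (limma adjusted p = 0.977).

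Beyond these 10, 43 other immediate early and rapid-response genes were measured, of which 15 fell and 5 rose, with a median of −0.17. Over all genes 12.8% were lower and 12.2% higher, or 19.8% and 19.3% above background, where 37 of the 43 lay. The list was chosen with earlier results of these data known, so its counts are given as a description and not read as a result about such genes. The small GTPase Rhob fell by 2.27 (SE 0.06, limma adjusted p = 2.06e-07), from 12.62 to 12.71 on control arrays to 10.36 to 10.46 on shSep15 arrays. Fosb, a partner of JUN proteins, fell by 1.40 (SE 0.18, limma adjusted p = 0.000555), into background. The next falls by size, named after their values were seen, were Maff (−1.37), Dusp5 (−1.23), Fos (−1.15), Pim1 (−1.08), Klf6 (−1.05) and Myc (−1.03). Of these Fos fell into background, to a mean of 5.94 in shSep15 cells, so the size of its fall is not exact. In 23 of the 43 genes the difference did not pass, Jun (−0.20) among them. The 5 that rose were Ccn1 and, named after their values were seen, the phosphatase Dusp1 (0.88), Phlda1 (0.72), the RNA-binding Zfp36l2 (0.34, a call that 0 of its 2 further probe sets shared) and the survival factor Mcl1 (0.28, shared by 2 of 5).

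Upstream of the EGR genes, of 22 listed genes of the ERK pathway 14 were measured and the remainder was not analysed here; 2 fell and 1 rose, with a median of 0.03. All 14 lay above background, where 19.8% of genes were lower and 19.3% higher, against 12.8% and 12.2% over all genes. A smaller share of the 14 was called than the 39.1% of genes above background. The count is not read as a result about the ERK pathway. Nras rose by 0.61 on its brightest probe set (limma adjusted p = 0.000492) and by 1.02 on the mean of its probe sets, and its 2 further probe sets above background were also called higher. The kinase Map2k5 fell by 0.61 (limma adjusted p = 0.00494), a call shared by 2 of its 3 further probe sets. Araf fell by 0.69 (limma adjusted p = 0.00118), but a second probe set did not share the call, and averaging them gave −0.21 (limma adjusted p = 0.0934). Transcript levels do not report kinase activity.

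Of 16 genes described as EGR targets, 2 fell and 2 rose, with a median of 0.04. That equals the 25.0% called over all genes and is no result about EGR targets. Tissue factor F3 fell by 1.17 (SE 0.25, limma adjusted p = 0.00946) and the growth factor Vegfa by 0.94 (SE 0.10, limma adjusted p = 0.000165). Pdgfa, a growth factor for mesenchymal cells, rose by 0.57 (limma adjusted p = 0.00777), as did the heparanase gene Hpse (0.43, limma adjusted p = 0.0362), named after its values were seen. The call of F3 ended without control 2 (−1.10, limma adjusted p = 0.05), where 1 gene of the list was called lower. The number called higher was 1 without control 2, control 3 or any 1 shSep15 array.

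**Figure D3:**
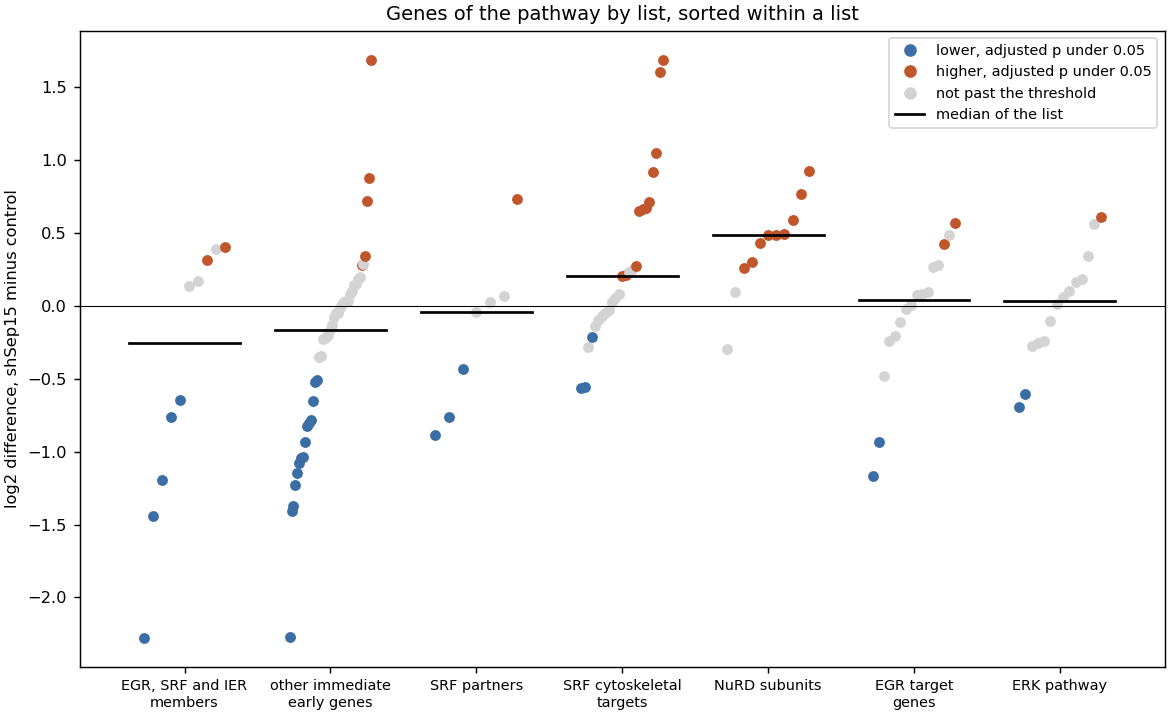
Log2 difference, shSep15 minus control (y axis), of the brightest probe set of each measured gene, by gene list (x axis) and sorted within a list; lines mark list medians, and Ccn1 stands in 2 lists. Medians run from −0.26 for the EGR, SRF and IER genes to 0.49 for the NuRD subunits, where 9 of 11 points are called higher.

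Arrays of the same group differed in a shared way in part of these genes. Control 3 was the lowest control array for 7 of the 10 genes and for 27 of 37 other immediate early genes above background, against 47.6% of the 10870 genes above background. Egr2, under background, is among the 7. In the shSep15 group array 2 was the lowest for 6 of the 10 and for 25 of the 37, against 40.1% of genes. Egr3, Srf and Nr4a1 were lowest on neither array. Deviations of control 3 and shSep15 2 from their group means correlated at 0.44 over all probe sets above background, so they were not confined to these genes. Egr1 lay at −0.37 from its group mean on control 3, −0.68 on shSep15 2 and 0.79 on shSep15 3. Control 3 also had the highest signal for 18S ribosomal RNA, 8.31 on the 3′ probe set against 6.01 to 6.53 on the other 5 arrays; its part in the low values was not tested. Without control 3 the same count of 5 genes was lower and 2 were higher, and Egr1 differed by −2.46.

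**Figure D4:**
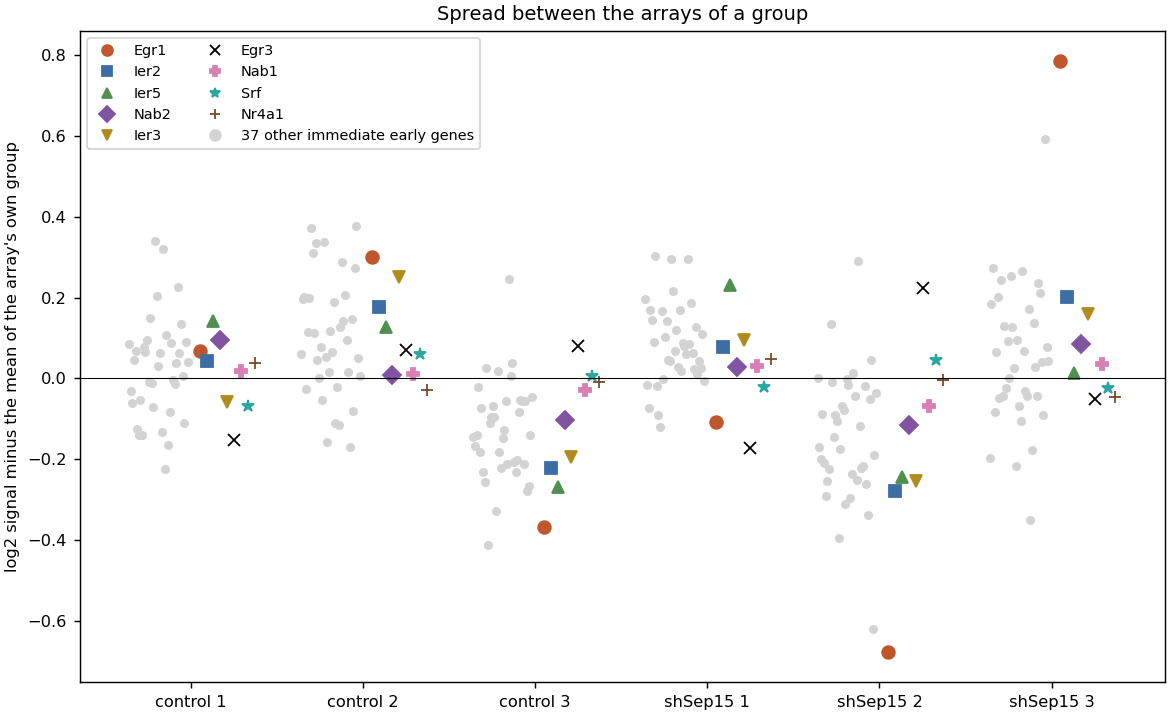
Log2 signal minus the mean of the array's own group (y axis) on each of the 6 arrays (x axis) for the 9 of the 10 genes above background (coloured symbols) and 37 other immediate early genes (grey). On control 3 and shSep15 2 the grey points have medians of −0.14 and −0.14 and Egr1 lies at −0.37 and −0.68, while on shSep15 3 it lies at 0.79.

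Over the 6 arrays, the 5 genes above background whose brightest probe set followed Egr1 most closely were Pak3, Sdf2, Gla, Tmem223 and Mxd1, with Pearson r from 0.995 to 0.998. Of the 8 other genes of the group above background, Ier2 came closest (r = 0.98), then Nab2 (0.97) and Ier5 (0.94). Srf (−0.93), Nr4a1 (−0.90), Nab1 (−0.83), Egr3 (−0.64) and Ier3 (−0.45) had negative values. These values mostly carry the difference between the groups, which all genes called in 1 direction share, and are a description over 6 arrays.

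The place of the genes in the genome gave a further reading. Egr1 lies on chromosome 18, where 45.9% of 259 genes above background were lower and 5.79% higher, with a median of −0.30, against 19.8%, 19.4% and 0.01 over all chromosomes. Of its 20 nearest genes above background in the gene order 12 were lower and 1 higher, with a median of −0.47 and a lowest value of −0.995. Egr1 at −2.28 was below all 20, and −1.81 from their median. Srf and Ier3 lie on chromosome 17, where 32.1% of 546 genes were higher and 8.42% lower, and the 20 neighbours of Srf had a median of 0.20, which is 0.20 less than Srf itself.

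The other genes that fell stood below most of their neighbours. Only 1.38% (Egr2) to 6.78% (Nab2) of all genes had a difference as low or lower, so this place follows largely from their being called lower. The same holds for Egr1 (0.44%). Egr2 (19 of 20 neighbours above it), Ier2 (19 of 20), Ier5 (18 of 20) and Nab2 (17 of 20) differed from their neighbours' median by −1.39, −0.90, −0.90 and −0.57. Around Ier5 10 of 20 neighbours were lower and 2 higher, with a median of −0.30, whereas those of Egr2, Ier2 and Nab2 had medians of −0.05, 0.14 and −0.07. The part of such regional shifts in the values of single genes was not tested.

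**Figure D5:**
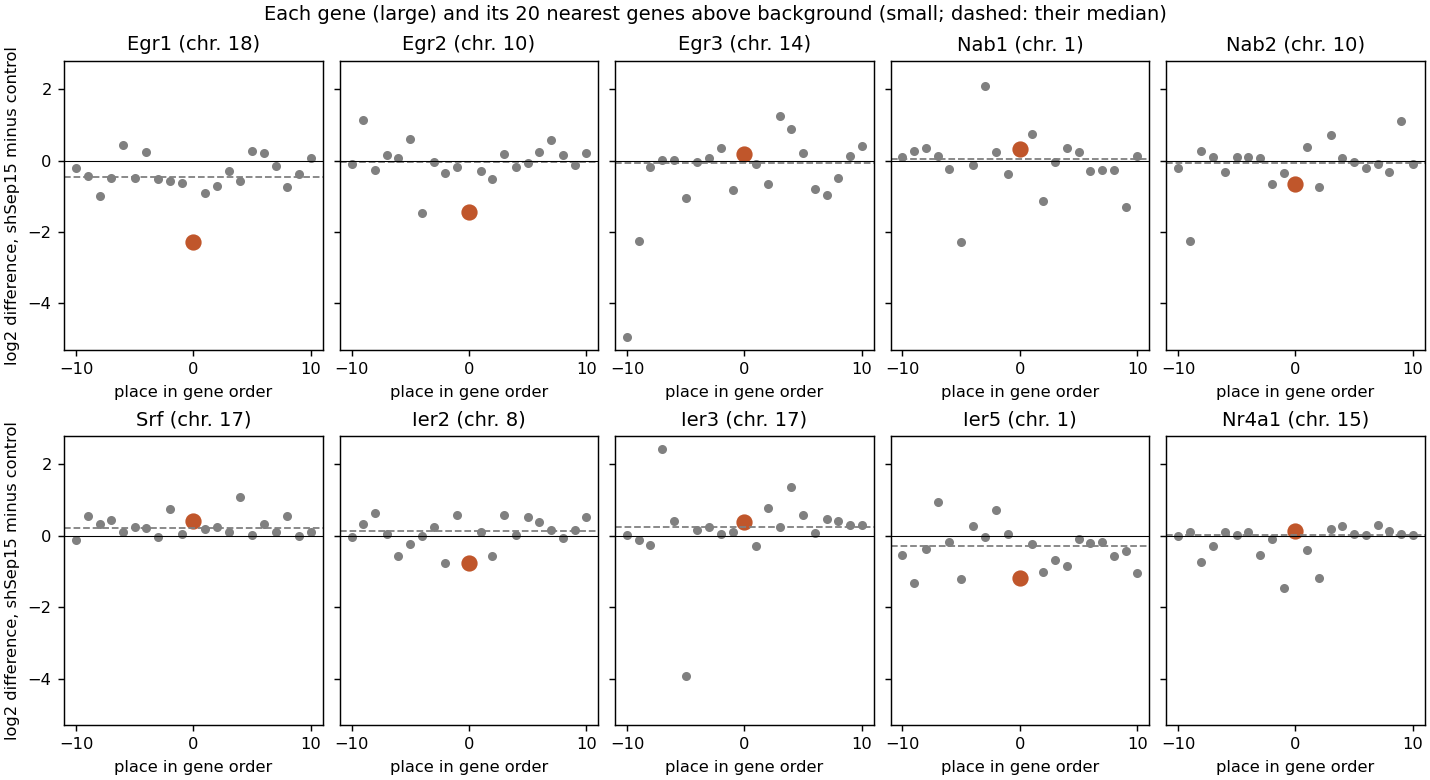
Log2 difference, shSep15 minus control (y axis, shared), of each of the 10 genes (large point, place 0) and of the 10 genes above background on either side of it in the gene order (small points, x axis in places); the dashed line is the median of the 20 neighbours. Egr1 lies below all of its neighbours, whose median is −0.47, and Srf lies 0.20 above a median of 0.20.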

How the data were processed

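RNA of 3 control and 3 shSep15 samples was measured on 1 array each. The deposited table holds log2 values that the submitters' processing notes credit to RMA; its version is not given in the sources used here. Values spanned 3.31 to 14.24; normalization between arrays hides a change in total RNA. Of 45101 probe sets 64 array controls were left out and 45037 tested; 34945 had 1 symbol, 932 several and 9160 none, and 34741 were matched by gene identifier to the RefSeq table (GRCm38.p6), which also gave the gene order. Each gene was represented by the single-symbol probe set with the highest mean. Limma 3.58.1 in R 4.3.3 (lmFit, eBayes with an intensity trend, group as the only term, two-sided) was adjusted by Benjamini-Hochberg over 45037 probe sets at 0.05, and tested on simulated data. Background was the 95th percentile of 78 receptor probe sets. The genes and lists were chosen with earlier results of these data known. Named were all 10 genes, of each list up to 3 genes with the greatest called differences, and the 5 genes most like Egr1; others are marked. Alternatives were other eBayes, scaling, filter, probe set and pairing choices, another background percentile and leaving out each array.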

Additional observations from a re-analysis of the deposited data

How the results depend on the processing

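The falls of Egr1, Egr2, Ier2, Ier5 and Nab2 kept their direction and call under every alternative run in which the probe set was tested; Egr2 was not tested when dim probe sets were left out. The count of genes that fell was 5 throughout the arrays left out 1 at a time, 4 on probe sets above background and 6 on the mean of probe sets. The count that rose was 2 with all arrays, 3 under quantile normalization, 0 to 3 with 1 array left out and 0 on the mean of probe sets, on which Egr3 reversed to −0.76. With the 99th percentile as background, log2 7.53, 2 of the 10 genes lay under it in both groups, against 0. ERK pathway genes higher numbered 2 on the mean of probe sets and 1 to 2 with 1 array left out. EGR targets higher numbered 4 on probe sets above background and 1 to 2 with 1 array left out, and lower 4 under quantile normalization and 1 to 3. NuRD subunits lower numbered 1 under quantile normalization, 1 on probe sets above background and 0 to 1 with 1 array left out. With the repeat number as a replicate block 4540 probe sets were higher and 4512 lower, against 4372 and 4350, with 5 and 2 of the 10 genes called as before. The repeat numbers were not taken as pairs: deviations of arrays with the same number correlated at 0.40, −0.20 and −0.06, and 1 of 3 control arrays correlated best with its own number. The highest correlation, 0.44, was that of control 3 with shSep15 2. The 3 arrays a group and signals near background limit Egr2 and Egr3.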
